A study of Homo sapiens with 2 samples.

Results

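The genes described are those of the ID and SMAD families, matched by exact symbol in a table of 46427 gene rows from cells labelled MiaPaca2. The set holds 10 members, 4 ID genes (ID1, ID2, ID3, ID4) and 6 SMAD genes (SMAD2, SMAD3, SMAD4, SMAD6, SMAD7, SMAD9), and all 10 were found and measured, that is, had at least 50 counts in at least 1 library. MIA PaCa-2 is an established line from a human pancreatic adenocarcinoma. Total RNA was sequenced after 48 hours with vehicle (1 library) or with iMQT_020 (1 library), a compound that the series describes as blocking glutamine transport into mitochondria, and the dose is not given in the sources used here. The comparison asks how transcript levels differ after exposure to the compound. With 1 library in each group there are no replicates, no test of the treatment is possible, and the compound cannot be told apart from any other difference between these 2 libraries.

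ID proteins carry a helix-loop-helix domain without the adjoining basic region, so they pair with E proteins and other basic helix-loop-helix factors and keep them from DNA. SMAD proteins carry signals of the TGF-beta superfamily from receptors to the nucleus. SMAD2 and SMAD3 are phosphorylated by TGF-beta and activin receptors, and SMAD1, SMAD5 and SMAD9 by BMP receptors. SMAD4 is the partner that both sets share. SMAD6 and SMAD7 inhibit the pathway as feedback. ID1, ID2, ID3, SMAD6 and SMAD7 are known as genes that BMP signalling induces, and SMAD4 is known for its frequent loss in pancreatic cancer.

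Estimated counts totalled 67095283 for vehicle and 59139157 for iMQT_020. KRT8, KRT18 and VIM, markers of the labelled line, ranged from 77.5 to 438 TPM over both libraries, while KRT19 was listed at 0 and CD44 was at 0.0964 (vehicle) and 0.0209 TPM (iMQT_020). MIA PaCa-2 is known to lack CDKN2A, which stood at 278 and 208 TPM here. Whether the cells are that line is therefore uncertain, and no value below should be read as a property of it. Of 6 markers each of acinar, endocrine, endothelial and immune cells and of fibroblasts, at most 2 of a type reached 1 TPM in either library. Those of endocrine cells were PAX6 (15.8 TPM with vehicle and 13.7 with iMQT_020) and NKX2-2 (4.12 and 2.84). That of fibroblasts was COL1A1 (16.5 and 11.1 TPM). PTPRC, the pan-leukocyte marker, was listed at 0 in both, and PECAM1 of endothelial cells was at 0.165 TPM or below.

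The 250 bases upstream of the annotated start are shown for ID1, ID3, SMAD6 and SMAD7, which were higher in the iMQT_020 library, and for ID2, which was lower. Capitals mark letters that were searched on both strands. These were GTCTAGAC, a full palindrome of the SMAD-binding element; CAGAC, a shorter form of it; GGCGCC, a motif bound by BMP-type SMADs; CANNTG, the E-box that E proteins bind; and TATAAA, the core letters of the TATA box. None of the 5 patterns contains another. Sequences are from RefSeq on GRCh38.p14, which had windows for all 10 genes, and are written 5′ to 3′ on the strand of the gene. ID1 is at chr20:31605039-31605288 (plus strand), ID2 at chr2:8681806-8682055 (plus), ID3 at chr1:23559502-23559751 (minus), SMAD6 at chr15:66701986-66702235 (plus) and the outermost of 3 SMAD7 starts at chr18:48950966-48951215 (minus).
ID1: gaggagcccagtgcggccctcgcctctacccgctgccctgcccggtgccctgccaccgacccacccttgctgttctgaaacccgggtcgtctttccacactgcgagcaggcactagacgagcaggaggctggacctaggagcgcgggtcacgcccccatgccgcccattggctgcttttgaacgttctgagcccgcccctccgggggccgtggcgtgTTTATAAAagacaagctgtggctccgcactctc
ID3: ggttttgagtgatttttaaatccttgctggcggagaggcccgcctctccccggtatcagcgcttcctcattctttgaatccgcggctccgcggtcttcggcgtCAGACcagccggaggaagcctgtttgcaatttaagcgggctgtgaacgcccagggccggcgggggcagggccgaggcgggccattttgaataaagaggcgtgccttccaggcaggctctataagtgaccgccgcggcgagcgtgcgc
SMAD6: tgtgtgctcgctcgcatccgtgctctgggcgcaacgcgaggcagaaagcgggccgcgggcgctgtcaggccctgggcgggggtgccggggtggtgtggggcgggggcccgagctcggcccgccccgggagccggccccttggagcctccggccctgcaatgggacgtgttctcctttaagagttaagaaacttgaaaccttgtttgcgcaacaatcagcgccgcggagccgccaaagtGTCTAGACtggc
SMAD7: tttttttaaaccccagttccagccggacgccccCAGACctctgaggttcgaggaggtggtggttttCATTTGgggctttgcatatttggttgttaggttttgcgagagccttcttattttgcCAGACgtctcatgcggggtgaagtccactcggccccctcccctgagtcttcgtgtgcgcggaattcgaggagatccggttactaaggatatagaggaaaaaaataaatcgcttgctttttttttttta
ID2: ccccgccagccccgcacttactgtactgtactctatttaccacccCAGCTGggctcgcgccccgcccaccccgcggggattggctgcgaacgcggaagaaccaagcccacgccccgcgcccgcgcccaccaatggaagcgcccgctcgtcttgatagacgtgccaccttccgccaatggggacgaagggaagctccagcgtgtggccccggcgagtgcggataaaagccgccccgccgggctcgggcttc

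The SMAD6 window holds GTCTAGAC 12 to 5 bases before the start, and 0.182% of 35116 windows of the same length hold it. The SMAD7 window holds CAGAC at 2 places, 217 and 128 bases before the start, and an E-box. The ID3 window holds CAGAC once. CAGAC was also found upstream of another of the SMAD7 starts, of ID4 and of 2 of the 5 SMAD3 starts. It is frequent, in 13345 of the 35116 windows. In the ID1 window only the TATA box matched, 33 to 26 bases before the start over 2 overlapping matches, against 10.7% of windows with TATAAA. The ID2 window holds an E-box, as do 61.8% of windows. GGCGCC, in 16.4% of windows, was found upstream of SMAD2, SMAD3 and SMAD4 and in none of the 5 windows printed. These matches describe letters in a short window, and binding was not measured.

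Differences among the 10 genes were small. None was 2-fold or more apart between the libraries, against 5.23% of 14805 measured genes (2.15% higher and 3.09% lower in the iMQT_020 library). All 10 had over 1000 counts in a library, and of 9312 genes with such coverage 1.28% were 2-fold or more apart. The inhibitory SMAD genes and ID1 lay highest, with SMAD7 at 1.51-fold, SMAD6 at 1.47-fold and ID1 at 1.38-fold higher in the iMQT_020 library. ID2 and SMAD3 were lower, by 1.28-fold and 1.22-fold. Ratios are log2 ratios of CPM (counts scaled to a common library total), iMQT_020 over vehicle, after scaling for library size. The interval given with each is an exact 95% interval that covers counting error only and takes no account of variation between cultures. The 10 genes had a median log2 ratio of 0.18, with 7 above 0 and 3 below, beside a median of −0.02 over all measured genes, of which 47.3% were above 0 and 52.7% below. The counting interval lay above 0 for 6 members and below 0 for 2, against 40.4% and 41.7% of the genes with over 1000 counts, so an interval that excludes 0 was common at this depth. In RNA from whole cultures, a difference in the share of cells that carry a transcript and a difference in its amount per cell cannot be told apart.

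**Figure D1:**
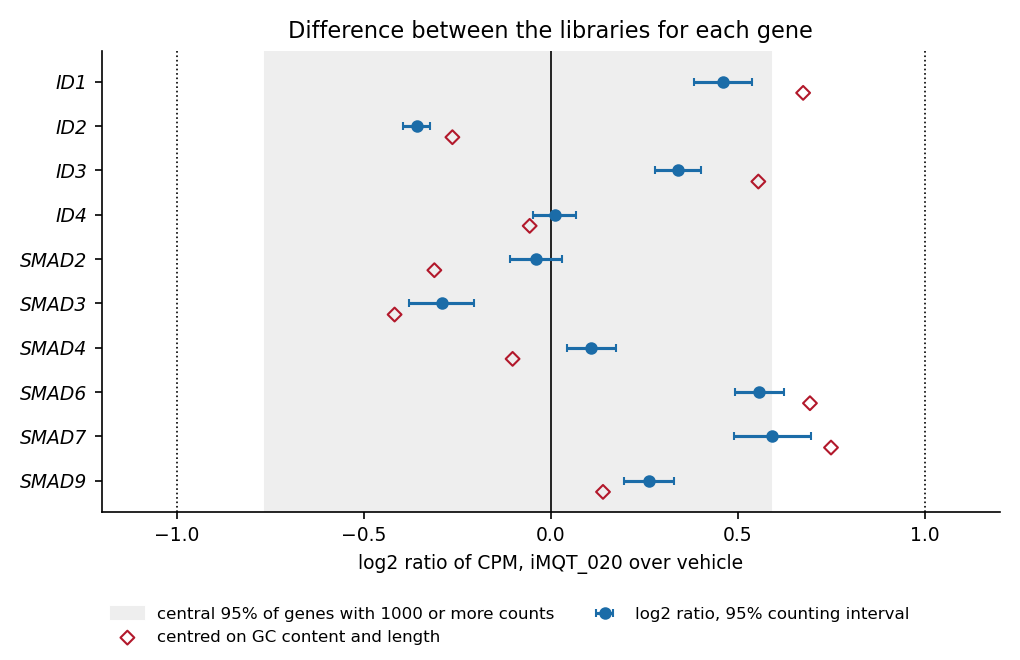
Log2 ratio of CPM, iMQT_020 over vehicle, for each of the 10 genes (circles, with exact 95% counting intervals; 1 library per group), the same ratio centred on GC content and transcript length (diamonds), the central 95% of genes with at least 1000 counts (grey band, −0.76 to 0.59) and 2-fold (dotted lines). SMAD6, SMAD7, ID1 and ID3 lie to the right of 0, ID2 and SMAD3 to the left, and none reaches 2-fold.

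ID1 (gene ID 3397; chromosome 20, 31605289 to 31606510, GRCh38) had 2496 counts with vehicle and 3038 with iMQT_020, and its deposited levels were 79.2 and 114 TPM. ID1 is the founding member of the family and a classical BMP target. Its log2 ratio was 0.46 (0.38 to 0.54). Of the 9312 well-covered genes, those reaching 1000 counts in either library,, 5.97% had a higher ratio.

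ID3 (gene ID 3399; chromosome 1, 23557926 to 23559501) went the same way as ID1. It had 3994 counts with vehicle and 4474 with iMQT_020, at 141 and 184 TPM. The log2 ratio was 0.34 (0.28 to 0.40), and 12.7% of genes with at least 1000 counts had a higher one. A long non-coding gene, LOC124903876, overlaps ID3. The strand setting of the counts is not known, so reads of overlapping genes cannot be separated. ID1 and ID3 are often expressed together and have overlapping roles in development.

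ID2 (gene ID 3398; chromosome 2, 8682056 to 8684461) was the most abundant of the 10 genes in both libraries and went the opposite way. ID2 had 15039 counts with vehicle and 10382 with iMQT_020. Its level was 388 TPM with vehicle and 313 TPM with iMQT_020, and 97.7% of measured genes were at a lower TPM in the vehicle library. The log2 ratio was −0.36 (−0.39 to −0.32), and 13.7% of genes with at least 1000 counts had a lower one. ID2 is known to bind proteins of the retinoblastoma family as well as E proteins.

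ID4 (gene ID 3400; chromosome 6, 19837370 to 19842197) was nearly level between the libraries, with 5304 and 4728 counts and 46.0 and 47.8 TPM. Its log2 ratio of 0.01 had a counting interval on both sides of 0 (−0.05 to 0.07), and its sign changed with scaling by median of ratios (−0.00) and with centring on GC content and length (−0.06).

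Summed over the 4 ID genes, the deposited level was 655 TPM with vehicle and 659 TPM with iMQT_020, a ratio of 1.01. In deposited TPM the sum was thus nearly the same while its make-up differed. Ratios of TPM ran slightly above those of scaled counts, by 0.05 in the median log2 ratio over measured genes. ID2 took 59.3% of it with vehicle and 47.5% with iMQT_020, ID3 21.5% and 28.0%, and ID1 12.1% and 17.3%. ID4 took 7.02% and 7.25%. ID2 was at 4.90 times the level of ID1 with vehicle and at 2.75 times with iMQT_020. The order of the levels, ID2, ID3, ID1, ID4, was the same in both libraries.

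**Figure D2:**
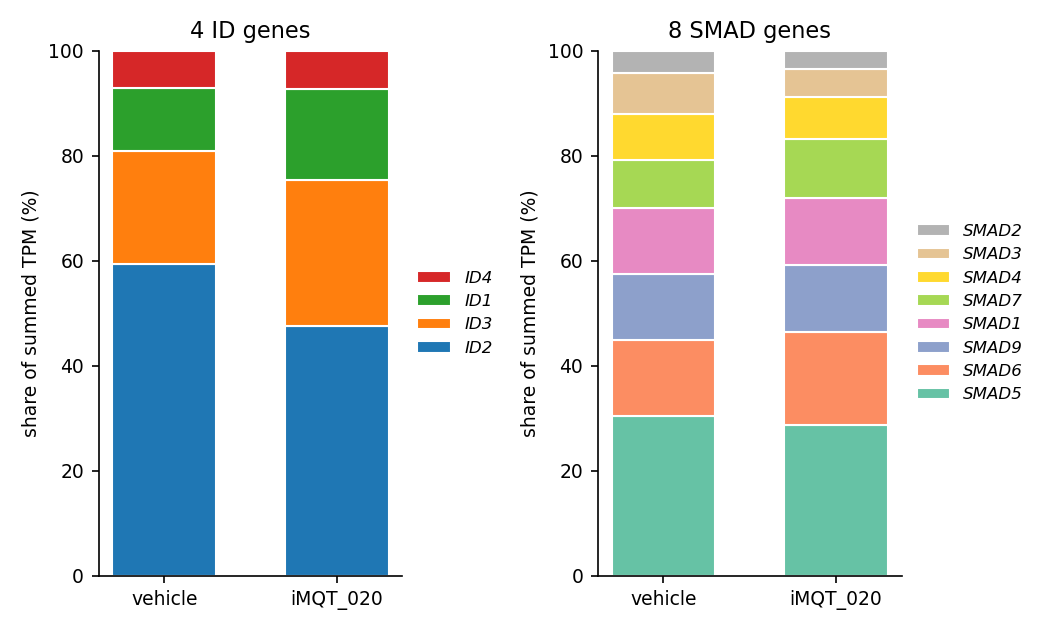
Share of summed TPM (percent, deposited values; 1 library per bar) taken by each of the 4 ID genes (left) and each of the 8 SMAD genes (right). ID2 takes 59.3% of the ID sum with vehicle and 47.5% with iMQT_020, and SMAD6 and SMAD7 together take 23.6% and 28.8% of the SMAD sum.

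Both inhibitory SMAD genes were higher in the iMQT_020 library. SMAD6 (gene ID 4091; chromosome 15, 66702236 to 66782849), which acts mainly against BMP signals, had 3365 counts with vehicle and 4381 with iMQT_020. Its level was 24.5 and 36.6 TPM, the highest of the 6 SMAD members in both libraries. The log2 ratio was 0.56 (0.49 to 0.62), and 3.03% of genes with at least 1000 counts had a higher one. SMAD6 is the gene whose window above holds GTCTAGAC, and whether those letters bear on its level was not tested.

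SMAD7 (gene ID 4092; chromosome 18, 48919853 to 48950965), which acts against both TGF-beta and BMP signals, had the fewest counts of the 10 genes, 1316 with vehicle and 1756 with iMQT_020. Its level was 15.3 and 23.0 TPM. SMAD7 had the highest ratio of the 10 genes at 0.59 (0.49 to 0.70), and 2.43% of genes with at least 1000 counts were higher. It was the only member to pass a 1.5-fold rule, which 2.59% of well-covered genes passed upward and 5.42% downward. Its counting interval reaches below 1.5-fold and overlaps that of SMAD6. Which members pass depends on the processing. With scaling by median of ratios SMAD7 fell short of the rule, at 0.58. With centring on GC content and length SMAD7 (0.75), SMAD6 (0.69) and ID1 (0.67) all passed it. SMAD6 was at 1.61 times the TPM of SMAD7 with vehicle and at 1.59 times with iMQT_020.

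The SMAD genes that serve TGF-beta and activin receptors were not higher. SMAD3 (gene ID 4088; chromosome 15, 67065602 to 67195169) had 2526 counts with vehicle and 1826 with iMQT_020, at 13.3 and 11.2 TPM. Its log2 ratio was −0.29 (−0.38 to −0.20), and 17.8% of genes with at least 1000 counts were lower. An antisense gene, SMAD3-AS1, overlaps it, with the same limit as for ID3.

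SMAD2 (gene ID 4087; chromosome 18, 47808957 to 47930872) had 3636 counts with vehicle and 3132 with iMQT_020, and with its long transcripts the lowest TPM of the 10 genes, 7.10 and 7.06. Its log2 ratio was −0.04, with a counting interval on both sides of 0 (−0.11 to 0.03). Centring on GC content and length moved it to −0.31. A pseudogene, MTCO2P2, lies within its bounds.

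SMAD4 (gene ID 4089; chromosome 18, 51030213 to 51085042), the shared partner, was present in both libraries, with 3879 and 3700 counts and 14.8 and 16.5 TPM. Its log2 ratio was 0.11 (0.04 to 0.17) and turned to −0.10 with the centring, so no direction is given for it.

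SMAD9 (gene ID 4093; chromosome 13, 36844831 to 36920854), the least studied of the BMP-type SMADs, had 3454 counts with vehicle and 3665 with iMQT_020. Its level was 21.2 and 26.4 TPM, and its log2 ratio was 0.26 (0.19 to 0.33), with 18.8% of genes with at least 1000 counts higher. The other SMADs of this branch lay near it. SMAD1 was at 21.0 and 26.7 TPM, with a log2 ratio of 0.29 (0.19 to 0.38). SMAD5, the most abundant SMAD transcript, was at 51.2 and 59.2 TPM, with a log2 ratio of 0.16 (0.12 to 0.20) that became −0.03 with the centring.

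**Figure D3:**
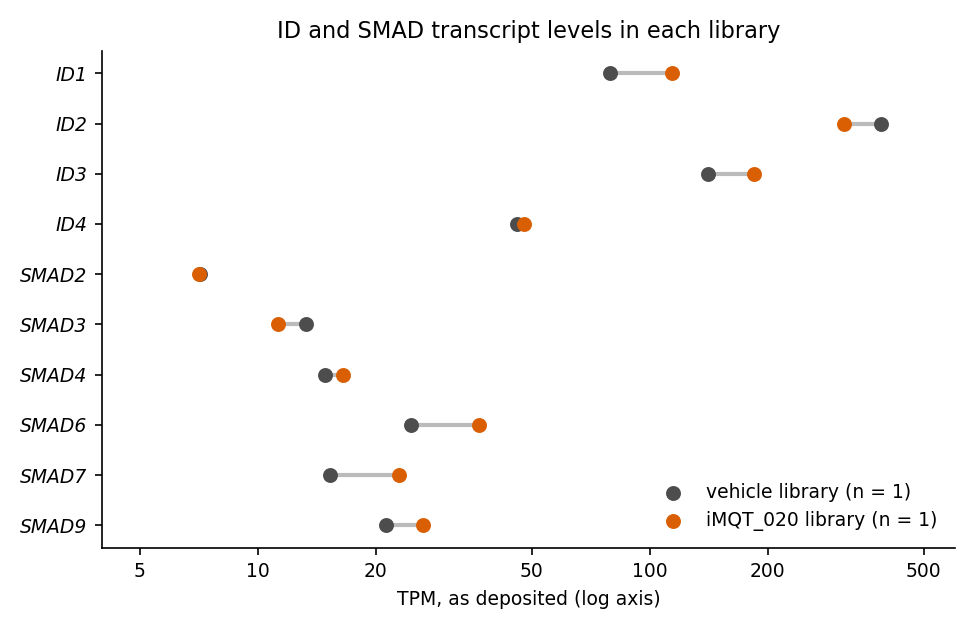
Deposited TPM (log axis) of the 10 genes in the vehicle library (grey) and the iMQT_020 library (orange), 1 library per group. The ID genes run from 46.0 TPM (ID4) to 388 TPM (ID2) with vehicle and the SMAD members from 7.10 TPM (SMAD2) to 24.5 TPM (SMAD6), with the same order in both libraries.

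Over all 8 SMAD genes the summed level was 168 TPM with vehicle and 207 TPM with iMQT_020. SMAD6 and SMAD7 together took 23.6% of it with vehicle and 28.8% with iMQT_020, while SMAD2 and SMAD3 together took 12.1% and 8.85%. The BMP-type SMAD1, SMAD5 and SMAD9 held 55.5% and 54.3%. The level of SMAD6 was 1.85 times that of SMAD3 with vehicle and 3.26 times with iMQT_020. The order of the 10 members by TPM was the same in both libraries. The closest neighbours in it were SMAD7 and SMAD4 with vehicle, at 15.3 and 14.8 TPM, and no spread over samples exists to set such gaps against.

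The ratio in these libraries varies with the GC content and length of transcripts, and the members differ in both. The canonical transcripts of ID1 and ID3 (GENCODE 44) are short, at 983 and 950 bases, and rich in GC, at 57.9% and 56.7%. Genes in their bin of GC content and length (178 genes) had a median log2 ratio of −0.21. Set against their bins, ID1 was at 0.67, ID3 at 0.55, SMAD6 at 0.69 and SMAD7 at 0.75. ID2 was at −0.26, SMAD3 at −0.42 and SMAD9 at 0.14. The 4 genes that were highest before the centring were thus farther from 0 after it, while the median of all 10 moved from 0.18 to 0.04.

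Upstream of the SMADs, ligand transcripts were mostly lower in the iMQT_020 library. Of 16 BMP and GDF ligand genes 9 were measured, with 7 below 0, beside 52.7% of all measured genes. The median log2 ratio of the list was −0.42 (−0.17 with log2(FPKM + 1), −0.31 with the centring), with 1 gene past 2-fold upward (2.15% of all measured genes) and 0 downward (3.09%). BMP7, a ligand of BMP receptors and the most abundant of the list, was at 28.5 TPM with vehicle and 21.7 TPM with iMQT_020. BMP6, another such ligand, was at 12.3 and 7.17 TPM, a log2 ratio of −0.82 (−0.96 to −0.69). The gene past 2-fold was GDF9, an oocyte growth factor, with few counts here (42 and 89). All 5 measured TGF-beta, activin and nodal ligand genes of 14 listed were below 0, with a median of −0.18 (−0.04 with no minimum count, −0.33 with a minimum of 200) and none 2-fold apart. TGFB1 was at 26.9 and 16.1 TPM (log2 ratio −0.78, −0.89 to −0.68; −0.44 with the centring) and INHBB, an activin subunit, at −0.49.

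Receptor genes went both ways. Over all measured genes 47.3% were above 0, 52.7% below and 3.09% at least 2-fold lower. Of the 5 BMP receptor genes 3 were above 0, with a median of 0.23 (0.38 with log2(TPM + 0.1)). BMPR2, the type II receptor for BMPs, had 5904 and 8399 counts and a log2 ratio of 0.68 (0.64 to 0.73; 0.41 with the centring), and BMPR1A, a type I receptor, was at 0.41 (0.19 with the centring). ACVRL1, the endothelial receptor for BMP9 and BMP10, had 254 and 109 counts and was the 1 gene of this list at least 2-fold lower, at −1.04 (−1.38 to −0.71; −0.95 with the centring). Of the 8 TGF-beta and activin receptor genes 4 were above 0 and 4 below, with a median of 0.04 (0.14 with log2(TPM + 0.1), −0.09 with the centring). TGFBR1, the type I receptor for TGF-beta, was at 0.09 (−0.13 with the centring), TGFBR3, the coreceptor betaglycan, at −0.69, and ENG, the coreceptor endoglin, at −1.63 (−2.45 to −0.92) on 71 and 20 counts.

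Of 18 genes for extracellular antagonists, with the pseudoreceptor BAMBI among them, 9 were measured, 7 were below 0 and the median was −0.35 (−0.14 with no minimum count, −0.55 with a minimum of 200, −0.25 with the centring). Among all measured genes 52.7% were below 0 and 3.09% at least 2-fold lower. NOG, noggin, a secreted inhibitor of BMPs and itself a BMP target, had 460 counts with vehicle and 181 with iMQT_020. It was the 1 gene of this list at least 2-fold lower, at −1.17 (−1.43 to −0.92; −0.93 with the centring). FSTL3, an activin-binding protein, was at −0.89 (−0.55 with the centring), and FSTL1, a related secreted glycoprotein and the most abundant of the list, at −0.14 (−0.25).

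Of 19 measured genes for SMAD corepressors, ubiquitin ligases and other regulators, 13 were above 0, beside 47.3% of all measured genes. The median of the list was 0.10, or −0.01 with the centring. SKIL, the corepressor SnoN and a TGF-beta target, was the 1 gene of this list at least 2-fold higher, beside 2.15% of all measured genes. It had 1769 and 3376 counts and a log2 ratio of 1.11 (1.03 to 1.19; 0.92 with the centring). PMEPA1, a TGF-beta target that blocks SMAD2 and SMAD3 recruitment, was at −0.57, and STUB1, a ubiquitin ligase, at −0.42 (−0.01 with the centring). Of 13 coactivators and DNA-binding partners 11 were measured, 3 of them at least 2-fold higher, against the same 2.15% of all measured genes. The median of this list was 0.25 (0.04 with the centring and also with no minimum count). CREBBP, an acetyltransferase that SMADs recruit, was at 24.7 and 53.8 TPM (log2 ratio 1.08, 1.04 to 1.12). EP300, its paralog and the remaining gene past 2-fold, named after its value was seen, was at 1.04 (0.89 with the centring). FOS, an AP-1 subunit that pairs with JUN, was at 1.15, while JUN was at −0.42 (−0.27 with the centring).

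Downstream, both lists of target genes were split. Among all measured genes 47.3% were above 0 and 52.7% below, with 2.15% at least 2-fold higher and 3.09% lower. Of 13 BMP target genes other than the members 12 were measured, 6 above 0 and 6 below, with a median of −0.03 (0.02 with the centring), 0 past 2-fold upward and 1, NOG, downward. HEY1, a repressor of the helix-loop-helix class and also a Notch target, was at 256 and 194 TPM with a log2 ratio of −0.44. MSX1, a homeobox gene, was at −0.66 (−0.42 with the centring). Of 19 TGF-beta target genes 17 were measured, 7 above 0 and 10 below, with a median of −0.07 (−0.28 with a minimum of 200 counts), 2 past 2-fold upward and 2 downward. CCN2, a matricellular protein gene, was at 1.30 and the other gene past 2-fold upward was SKIL. BHLHE40, a circadian and hypoxia-responsive repressor, was at −1.15, and SNAI2, a repressor of epithelial genes, at −1.09.

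Of the factors that ID proteins pair with or resemble, 12 of 20 listed were measured. Of these 4 were above 0 and 8 below, beside 52.7% of all measured genes below 0. The median was −0.20 (−0.31 with a minimum of 200 counts, −0.07 with the centring), and 2 of the 12 were at least 2-fold lower. These were BHLHE40 and TWIST2, a mesenchymal factor that dimerises with E proteins, with 583 and 241 counts and a log2 ratio of −1.10 (−0.85 with the centring). The 3 E protein genes, named after their values were seen, were within 2-fold. TCF3, which encodes E12 and E47, was at 101 and 91.5 TPM (−0.17; 0.02 with the centring), TCF4 at 0.21 and TCF12 at 0.21 (−0.06 and −0.01 with the centring). Counted once each, 103 of 141 listed genes were measured. Past 2-fold were 6 upward and 6 downward, against the 2.15% and 3.09% of all measured genes.

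**Figure D4:**
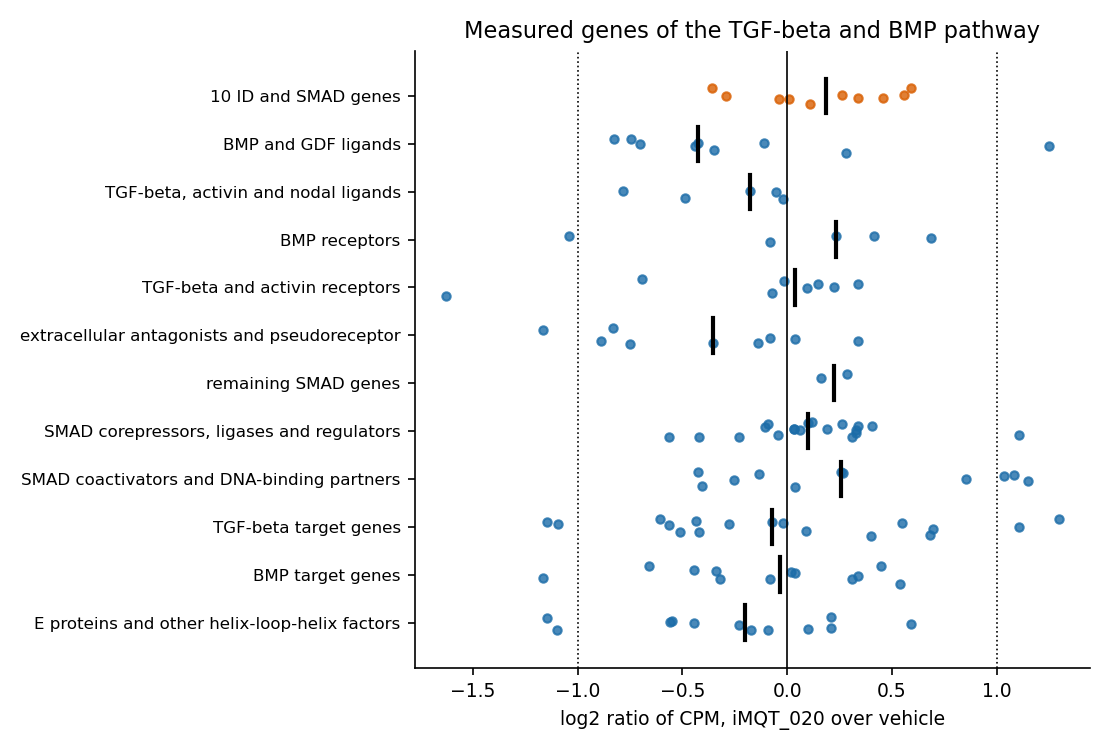
Log2 ratio of CPM, iMQT_020 over vehicle, for every measured gene of each list (points, 1 library per group; vertical offsets are for legibility), with list medians (black bars) and 2-fold (dotted lines). The 10 ID and SMAD genes span −0.36 to 0.59, while BMP and GDF ligands have a median of −0.42 and BMP receptors of 0.23.

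With 2 libraries a pattern is a single ratio, and likeness to a member is the difference in log2 ratio. Among the listed genes, the closest to ID1 was GATA3 (0.45 beside 0.46) and the closest to ID2 was NBL1 (−0.35 beside −0.36, but −0.04 beside −0.26 with the centring). BAMBI was closest to ID3 (0.34 each) and HES1, a Notch effector of the helix-loop-helix class, to SMAD7 (0.59 each). TAGLN was closest to SMAD6 (0.55 beside 0.56), FN1 to SMAD3 (−0.28 beside −0.29) and LEMD3 to SMAD9 (0.26 each). DLX2 was closest to ID4 (0.02 beside 0.01), TGIF2 to SMAD2 (−0.05 beside −0.04) and HEY2 to SMAD4 (0.10 beside 0.11). With the centring these last pairs came apart, at 0.20 beside −0.06, −0.01 beside −0.31 and 0.13 beside −0.10. GATA3 was then at 0.55 beside 0.67 and BAMBI at 0.40 beside 0.55. HES1 (0.75 each), TAGLN (0.71 beside 0.69), FN1 (−0.42 each) and LEMD3 (0.14 each) stayed near their members. Each gene was picked as the closest, so a small difference before the centring follows from the choice.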

How the data were processed

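RNA was measured in 2 libraries, vehicle and iMQT_020, both at 48 hours. Reads were mapped to GRCh38 with HISAT2 and Bowtie2, per the labels' protocols, and the submitters' processing notes list StringTie and edgeR with neither a version nor a role. Estimated counts (whole numbers), FPKM (per transcript length and depth) and TPM (scaled to 1 total per library) were deposited by the authors for each gene. For 98 snoRNA genes with 1 to 5 counts with vehicle, the reads derived from FPKM lay more than 0.05 and up to 1 below the count in 92.9%, the form of fractional estimates rounded up. A shorter deposited table gives FPKM in 20787 rows. It was compared for the 10 members only, and all 10 had equal values. Columns were assigned to samples by name. For the counting step and strand setting, nothing is given in the sources used here.

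Counts were scaled by TMM (edgeR 4.0.16, R 4.3.3), with factors of 0.998 and 1.00, and the log2 ratio used a prior count of 0.5. Genes reaching 50 counts in either library were called measured. With 1 library per group no p-value was computed, and a 2-fold rule was used. Exact Clopper-Pearson 95% intervals treat the estimates as whole reads, so they cover counting error only and can be too narrow. The calculation was tested on simulated data. The centring, chosen after the data were seen, subtracts the median ratio of genes alike in GC content and length (10 bins of each, crossed) of canonical GENCODE 44 transcripts, known for 93.6% of measured genes. Gene positions and upstream windows are from RefSeq on GRCh38.p14. Members and lists were chosen with earlier results of these data known. Named genes were all members, SMAD1, SMAD5, and of each list the 2 with the largest absolute ratio, the most abundant and those closest in ratio to a member. Python 3.11.15 with numpy 2.4.6, pandas 2.3.3, scipy 1.17.1 and matplotlib 3.10.9 was used, and DESeq2 1.42.0 for median-of-ratios scaling. The alternatives tried were other scalings, filters, prior counts, call rules and the deposited TPM and FPKM.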

Additional observations from a re-analysis of the deposited data

How the results depend on the processing

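The number of members at least 2-fold apart was 0 in each direction with 3 other scalings, a prior count of 5, minimum counts of 10, 200 or none, deposited TPM and FPKM with 1 or 0.1 added, and the centring. With a 1.5-fold rule it was 1 higher and 0 lower, and with a rule on the counting interval 6 higher and 2 lower. Of the 141 listed genes, 6 were at least 2-fold higher. This number was 11 with the 1.5-fold rule, 40 with the interval rule, 10 with a minimum of 10 counts, 14 with none and 3 with log2(FPKM + 1). Likewise 6 were at least 2-fold lower, and 16 with the 1.5-fold rule, 40 with the interval rule, 10 with no minimum, 3 with the centring, 1 with log2(FPKM + 1) and 2 with log2(TPM + 1). Of the 141 listed genes 103 were measured. Over all 14805 measured genes 2.15% were at least 2-fold higher and 3.09% lower. The interval lay above 0 for 5188 of the 14805 and below 0 for 5794. The 1.5-fold rule called 2.59% of well-covered genes upward and 5.42% downward. No such share was computed for the other settings. Over the 9 alternatives for each member the log2 ratio ran from 0.45 to 0.67 for ID1, from −0.37 to −0.26 for ID2, from 0.33 to 0.55 for ID3, from 0.49 to 0.69 for SMAD6, from 0.48 to 0.75 for SMAD7 and from −0.42 to −0.22 for SMAD3, with no change of sign. The sign changed for ID4 (median of ratios and the centring) and SMAD4 (the centring). The number added to TPM or FPKM draws low genes toward 0. No replicate could be left out and no paired analysis was possible because each group holds 1 library, so the depth of these libraries limits counting error alone.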

Other observations

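The deposited TPM and the counts gave slightly different ratios. Over measured genes the median log2 ratio of TPM was 0.02, against −0.02 for the count ratio, a shift of 0.05. ID2, ID3, ID4 and SMAD4, each with 1 listed transcript, were shifted by 0.05 as well. SMAD6 and SMAD7, with 4 listed transcripts each, were shifted by 0.02 and −0.00, and SMAD2, with 14, by 0.03. SMAD3, with 6, was shifted by 0.05, SMAD9, with 7, by 0.06 and ID1, with 2, by 0.06. The transcripts of a gene were not separated in the files used here.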
